A study of Mus musculus with 26 samples.

Results

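The comparison set 6 libraries of CD4+ T cells from C57Bl/6 mice on an elemental diet beside 6 from mice of the same strain on a conventional diet. These are 12 of the 26 samples of the series, chosen by the labels alone, and the measured genes are all those in the deposited tables. The cells were sorted by flow cytometry from Peyer's patches, the lymphoid follicles of the small intestinal wall. Poly(A) RNA libraries were made from 22 ng of total RNA in both groups. The labels give neither age, sex, housing nor time on the diet, and they do not say that replicates were separate mice. What the p-values reflect is thus how far these libraries spread, and some of that spread may be technical. The series asks how antigen from food acts on these T cells, and an elemental diet supplies free amino acids where ordinary chow supplies protein.

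Peyer's patches hold germinal centres that are driven by microbes and by food, in which B cells divide, mutate their antibody genes and switch them, largely to IgA. Follicular helper T cells, a CD4+ subset, steer this reaction through contact and through the cytokine interleukin-21. The follicles lie directly under a sheet of absorptive epithelium and next to tissue macrophages and dendritic cells. In sorted bulk samples such as these, fewer cells of a type and less RNA per cell cannot be told apart.

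Markers of the labelled cell type were abundant, and RNA of other cell types was present in every library. Cd4 ran from 222 to 444 CPM (median 352) on the conventional diet and from 181 to 282 CPM (median 253) on the elemental diet. Cd8a, a chain of the co-receptor of cytotoxic T cells, stayed between 13.2 and 55.9 CPM over all 12 libraries and was not called (-0.63 ± 0.28, adjusted p = 0.129), though it was without elemental replicate 1 (adjusted p = 0.0311). Cd8b1, the other chain of that co-receptor, ran from 11.5 to 20.2 CPM (median 15.4) on the conventional diet and from 17.4 to 29.9 CPM (median 22.3) on the elemental diet, and was called higher (0.55 ± 0.17, adjusted p = 0.0357). Its call did not hold with conventional replicate 1, 2, 4 or 5 or elemental replicate 1, 2 or 3 left out (adjusted p = 0.0554 to 0.0851). Cd44, an adhesion receptor of activated and memory T cells, fell from 137 to 88.8 CPM (-0.59 ± 0.12, adjusted p = 0.00387). The Cd4 level was lower on the elemental diet (log2 fold change -0.55 ± 0.16, adjusted p = 0.0282). That call was lost without any 1 of 7 libraries, namely conventional replicates 1, 2, 4 and 5 and elemental replicates 4, 5 and 6, with adjusted p from 0.0504 to 0.0641. Cd3e, a chain of the T cell receptor complex, ran from 189 to 211 CPM (median 206) on the conventional diet and from 149 to 212 CPM (median 171) on the elemental diet, and its difference was not called (-0.21 ± 0.08, adjusted p = 0.0887). Without conventional replicate 6 (adjusted p = 0.0401) or elemental replicate 1 (0.0295) it was. Of 15 alpha-beta T cell core genes, 4 fell (among them Cd5, Cd6 and Cd28) and 0 rose by edgeR. Their median was -0.14, and over all genes tested 7.61% fell. At an unadjusted p under 0.05 there were 6 lower and 1 higher, DESeq2 called 5 lower and 1 higher, and limma-voom 6 and 2. Without conventional replicate 6 edgeR called 7 lower and 2 higher. Exon reads per library ran from 16401589 to 25415205, and no library repeated another.

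Of 12320 genes tested, 2118 (17.2%) were called by edgeR's quasi-likelihood test at an adjusted p under 0.05. Of these, 1181 (9.59% of those tested) were higher and 937 (7.61%) lower on the elemental diet, and the median log2 fold change of all genes was -0.01. In 898 genes (7.29%) the 6 libraries of one diet did not overlap the 6 of the other. Counts of list members given below are to be read beside these shares. In fits that left out 1 library the number called was 1339 without conventional replicate 4, 1329 without elemental replicate 4 and 3894 without conventional replicate 6. The genes called higher were 787, 727 and 1959 in those 3 fits and the genes called lower 552, 602 and 1935. The number called lower was also 618 without conventional replicate 1, 614 without replicate 2 and 545 without replicate 5. Of the calls 55.76% were higher, against 70.97% (1689 of 2380) when libraries were scaled by T cell core genes alone, a scaling that moved the median of all genes to 0.06, and 71.28% of 383 against a minimum fold of 1.5. With the other 2 groups of the series in the same fit, CD44+ and CD44- T cells whose libraries were made from 1 ng with another kit, 3 genes were called and 721 had an unadjusted p under 0.05. Of the 3, 1 was among the 2118, the defensin gene Defa24 of the antimicrobial list, and in every other list below that fit called 0 genes. For most lists given below with 0 members in one direction, edgeR also had 0 in that direction at an unadjusted p under 0.05, and DESeq2 and limma-voom called 0. Co-inhibitory genes had 1 higher at an unadjusted p and 0 by the other tools, and type I interferon genes 1 lower in all 3 counts. Lists with other values have them beside their counts.

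Transcripts of 3 other cell types could move with the diet, and their levels are named beside the results they touch. Markers of epithelium (adhesion, keratin and mucin genes) had a mean log2 CPM of 0.38, 2.20, 3.20, 2.48, 3.45 and 3.98 in conventional replicates 1 to 6, and 4.42, 4.05, 3.93, 4.93, 4.97 and 4.84 in elemental replicates 1 to 6. Only conventional replicate 6 and elemental replicate 3 crossed. Gut macrophage markers ran from 1.82 to 2.54 on the conventional diet and from 3.40 to 4.98 on the elemental diet, with no overlap. B cell markers overlapped, at 4.51 to 5.37 against 3.96 to 4.94. With the epithelial level as a term beside diet, 279 genes were called, with the B cell level 860, and with the macrophage level 0 by edgeR, where 445 genes had an unadjusted p under 0.05. Since macrophage markers did not overlap between the diets, that fit cannot tell diet and macrophage level apart. Epithelial markers barely overlapped, so changes given below with the epithelial level as a term separate diet from that level only in part.

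**Figure D1:**
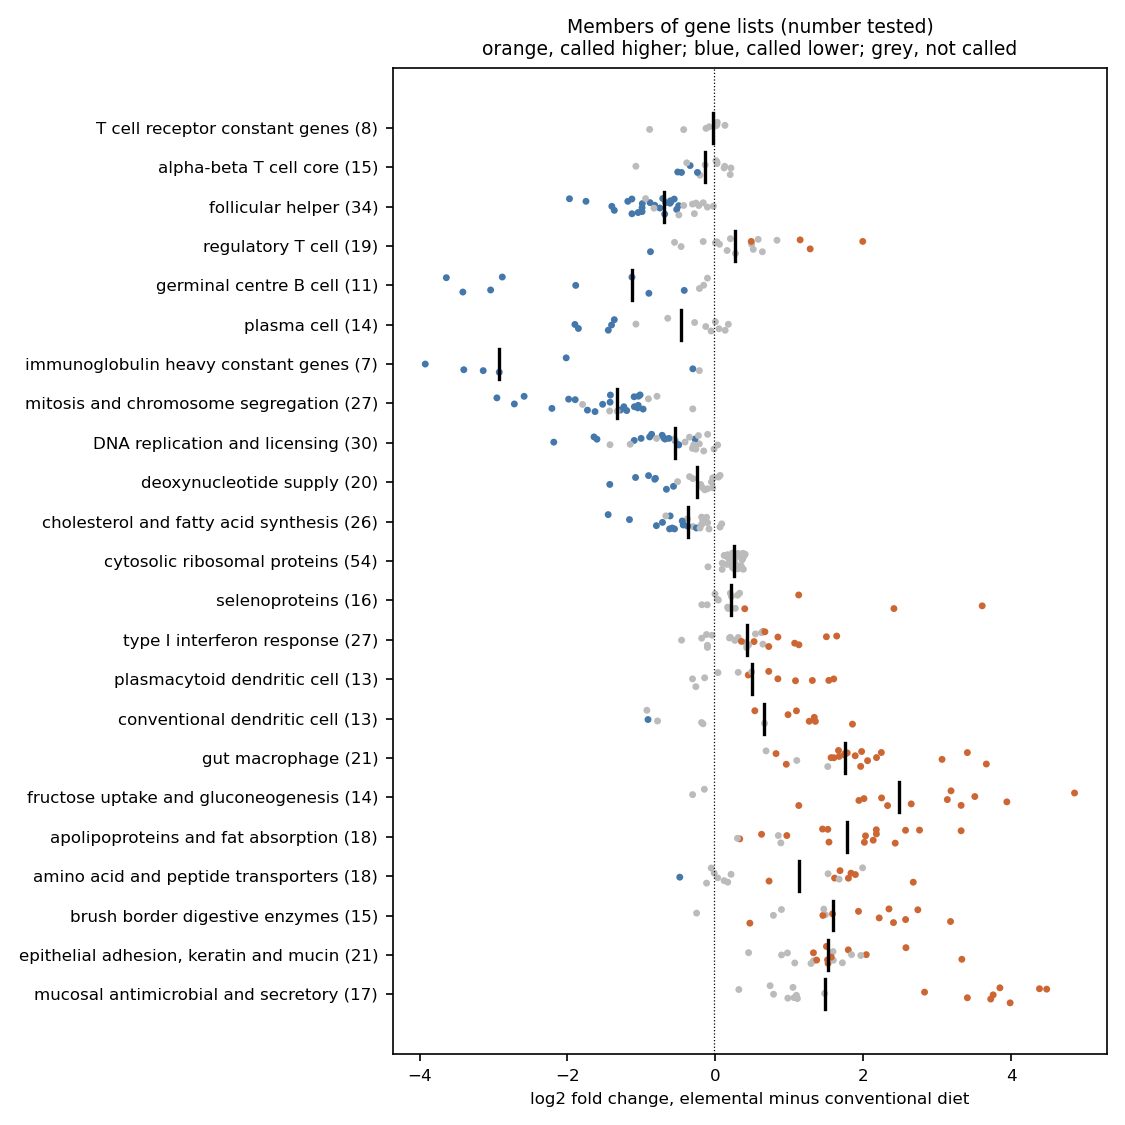
Log2 fold change (x axis, elemental minus conventional diet) of each tested member of 23 gene lists, 1 dot per gene, orange for genes called higher, blue for lower and grey for not called. Black bars are list medians and the dotted line is the median of all 12320 genes. Follicular helper, immunoglobulin, mitosis and replication lists lie to the left, and macrophage and epithelial lists to the right.

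**Figure D2:**
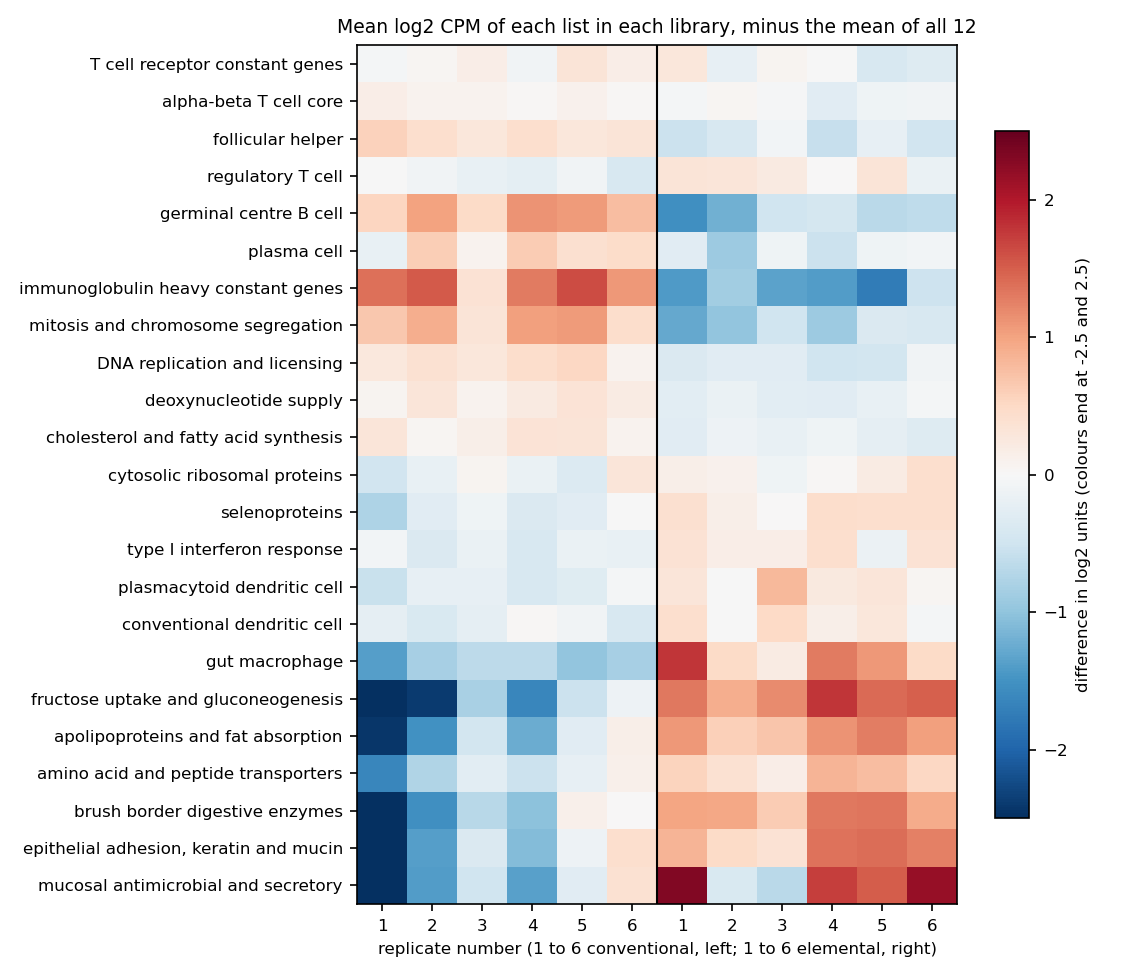
Mean log2 CPM of the same lists in each of the 12 libraries, as the difference from the mean of all 12 (red higher, blue lower). Conventional replicates 1 to 6 are on the left of the line and elemental replicates 1 to 6 on the right. Epithelial lists vary within the conventional group, with replicate 1 low and replicate 6 high, and the antimicrobial list is low in elemental replicates 2 and 3.

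Constant genes of the T cell receptor did not pass the test. The receptor genes Trac, Trbc1, Trbc2 and Trdc had log2 fold changes of -0.13 ± 0.06, 0.01 ± 0.09, 0.03 ± 0.09 and 0.02 ± 0.16, and none was called. Trac, the constant part of the alpha chain, nevertheless ran from 654 to 682 CPM (median 675) on the conventional diet and from 588 to 649 CPM (median 613) on the elemental diet, without overlap. Of 8 constant genes tested, 0 were called by edgeR, with 1 at an unadjusted p under 0.05 and 1 called by each of DESeq2 and limma-voom. Receptor transcripts took 0.377% ± 0.009 of gene reads on the conventional and 0.344% ± 0.017 on the elemental diet (SD, n = 6 each, two-sided exact permutation p = 0.00433, adjusted over 9 shares 0.00779). The share of beta chain reads that came from Trbc1 was 64.4% ± 0.827 and 64.2% ± 0.373 (exact permutation p = 0.554).

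Usage of variable segments moved in a few genes only, where 9.59% of all genes tested were called higher and 7.61% lower. Of 80 alpha segments tested, 3 were called higher (Trav14d-1, Trav14d-3-dv8 and Trav9n-4) and 4 lower (Trav14-3, Trav16n, Trav7-1 and Trav7-6), and of 21 beta segments 1 was higher (Trbv26) and 0 lower by edgeR, with 3 lower at an unadjusted p under 0.05 and 0 by DESeq2 or limma-voom. Trav14d-1 (chr14:52855614-52856166, plus strand) ran from 10.5 to 15.8 CPM (median 12.8) on the conventional diet and from 15.7 to 24.1 CPM (median 19.8) on the elemental diet, with a log2 fold change of 0.60 ± 0.14, adjusted p = 0.0113. It was the most read alpha segment in 4 of 6 elemental libraries and in none of the 6 conventional ones. Trav7-6 ran from 1.96 to 2.94 CPM (median 2.45) on the conventional diet and from 0.447 to 1.42 CPM (median 1.04) on the elemental diet (-1.33 ± 0.33, adjusted p = 0.0131), without overlap. The alpha locus carries near-identical copies of these segments, so reads could be split between copies. Trbv3 was the most read beta segment in all 12 libraries, at 11.49% to 22.88% of variable beta reads. The 4 lower alpha calls were reduced to 1 or 2 on leaving out 1 library, namely conventional 1 to 6 or elemental 1, 2 and 5. The beta call was lost without any 1 library other than conventional replicates 1 and 6 and elemental replicate 2 (adjusted p = 0.0525 to 0.0907), and 2 beta segments were called without conventional replicate 6.

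Genes of follicular helper cells were lower on the elemental diet. Of 34 members tested, 23 fell and 0 rose, against 7.61% and 9.59% of all genes. The median log2 fold change was -0.70 against -0.01 over all genes. In 14 members the diets did not overlap, against 7.29% of all genes. Il21 (chr3:37222759-37232636, minus strand) ran from 33.4 to 60.6 CPM (median 43.9) on the conventional diet and from 11.4 to 23.1 CPM (median 17.2) on the elemental diet, a change of -1.40 ± 0.18, adjusted p = 0.000206. Every elemental library lay below every conventional one. Tox2, a nuclear factor of this lineage, went from 62.3 to 29.2 CPM in the medians (-0.99 ± 0.15, adjusted p = 0.000854), and Icos, the co-stimulatory receptor that germinal centre B cells engage, from 175 to 89.8 CPM (-0.82 ± 0.12, adjusted p = 0.000667). Cxcl13, a chemokine that draws B cells, ran from 2.16 to 6.98 CPM (median 4.94) on the conventional diet and from 0.405 to 2.06 CPM (median 1.14) on the elemental diet (-1.97 ± 0.41, adjusted p = 0.00494). Cxcl13 is also in the list of stromal and endothelial markers, of which it was the 1 called among 8 tested. Which cells its reads came from was not tested. Bcl6, the repressor that defines the lineage, had a fold change of -1.13 ± 0.22, adjusted p = 0.00432, and its lowest conventional library, at 14.9 CPM, fell inside the elemental range of 9.3 to 16.8. Once the epithelial level was a term the list's median was -0.48 with 9 lower, and with the B cell level -0.70 with 20 lower. This list holds genes an earlier look at these data had singled out, so its direction is no independent evidence.

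Receptors that restrain T cells fell in part. Of 14 co-inhibitory receptors and members of the PD-1 axis, 5 fell (Pdcd1, Lag3, Tigit, Btla and Ptpn11) and 0 rose, and 5 fell without any 1 library. Tigit (chr16:43648861-43664184, minus strand), an inhibitory receptor for nectins, ran from 69.7 to 98.6 CPM (median 82.9) on the conventional diet and from 41.3 to 53.8 CPM (median 43) on the elemental diet (-0.88 ± 0.10, adjusted p = 9.68e-05). Lag3, which binds MHC class II, ran from 118 to 149 CPM (median 130.5) on the conventional diet and from 50.5 to 96.7 CPM (median 65.4) on the elemental diet (-0.97 ± 0.13, adjusted p = 0.000345). Ptpn11 (chr5:121130533-121191397, minus strand) encodes SHP2, the phosphatase that PD-1 recruits, and ran from 97.7 to 134 CPM (median 121) on the conventional diet and from 37.5 to 62 CPM (median 49.1) on the elemental diet, a change of -1.23 ± 0.13, adjusted p = 8.10e-05. In all 3 genes the elemental libraries lay wholly below the conventional ones. Ctla4, an inhibitory receptor that regulatory T cells also carry, was 95.1 and 100.4 CPM in the medians and was not called (0.16 ± 0.12, adjusted p = 0.347). Cd28, the co-stimulatory partner that competes with Ctla4, fell from 321 to 229 CPM (-0.46 ± 0.09, adjusted p = 0.00297), without overlap.

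Among the SLAM receptors, which hold T and B cells in long contact, 3 of 10 genes fell (Slamf6, Slamf7 and the kinase Fyn) and 0 rose, and 5 fell without conventional replicate 6. Slamf6 went from 131 to 87.4 CPM (-0.61 ± 0.09, adjusted p = 0.000778) and Slamf7 from 8.45 to 3.48 CPM (-1.38 ± 0.24, adjusted p = 0.00185), both without overlap. Slamf7 is also found on plasma cells. Tnfsf8, the ligand of CD30, fell from 75.2 to 33.6 CPM (-1.12 ± 0.15, adjusted p = 0.000308). Within the 13 TNF receptor superfamily genes, 2 rose and 3 fell (Tnfsf8, Tnfsf14 and Tnfrsf14). The Tnfrsf14 call was lost without conventional replicate 4 (adjusted p = 0.0533), and that of Tnfsf14 without conventional replicates 1 or 3 or elemental replicates 1, 2 or 6 (0.0557 to 0.0708). Tnfrsf18, the co-stimulatory receptor GITR, rose from 106 to 152 CPM (0.49 ± 0.11, adjusted p = 0.00874), and Tnfrsf25, the death-domain receptor DR3, rose from 22.3 to 31.7 CPM (0.62 ± 0.15, adjusted p = 0.0106).

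**Figure D3:**
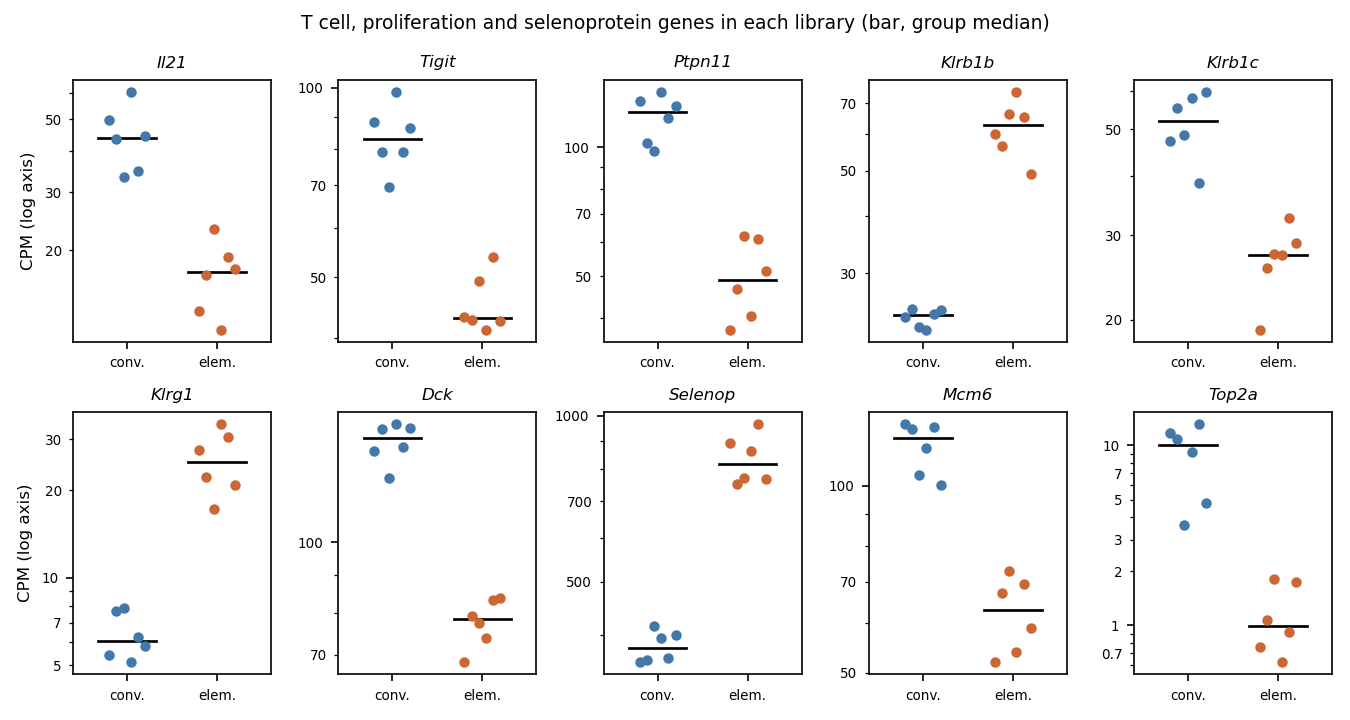
CPM (y axis, log scale) of 10 genes in each of the 6 conventional (blue) and 6 elemental (orange) libraries, with the median as a bar. In every panel the groups do not overlap. Klrb1b, Klrg1 and Selenop are higher and the others lower on the elemental diet.

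Neighbouring killer lectin-like receptors of chromosome 6 moved in opposite directions. Klrb1b (chr6:128813706-128826331, minus strand), an inhibitory receptor of the NKR-P1 family, ran from 22.6 to 25.1 CPM (median 24.3) on the conventional diet and from 49.3 to 74.1 CPM (median 62.8) on the elemental diet. Its log2 fold change was 1.37 ± 0.10, adjusted p = 2.67e-06. Klrb1c (chr6:128778485-128789215, minus strand), a receptor of natural killer cells, ran from 38.5 to 59.8 CPM (median 51.9) on the conventional diet and from 19.1 to 32.6 CPM (median 27.3) on the elemental diet (-0.93 ± 0.13, adjusted p = 0.000427). The ranges of the 2 diets were apart in both genes. The family holds similar genes, so part of the reads may be shared among them. Klrg1 (chr6:122270596-122282882, minus strand), an inhibitory lectin of effector and regulatory T cells, ran from 5.13 to 7.89 CPM (median 6.03) on the conventional diet and from 17.2 to 33.8 CPM (median 25) on the elemental diet (1.99 ± 0.18, adjusted p = 2.83e-05). Of 9 family members tested, 2 rose and 1 fell. After adding the epithelial level as a term the changes of Klrb1b, Klrb1c and Klrg1 were 1.34, -1.02 and 1.76 (adjusted p = 0.000217, 0.00666 and 0.00207).

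Genes of other helper lineages were called in both directions. Of 19 regulatory T cell genes, 4 rose (Klrg1, Ebi3, Tnfrsf18 and Il1rl1) and 1 fell (Tigit), with a median of 0.27, and without conventional replicate 1 the number that rose was 7. Foxp3, the factor that defines regulatory T cells, ran from 14.9 to 29.7 CPM (median 24.4) on the conventional diet and from 23.3 to 40.2 CPM (median 36.9) on the elemental diet and was not called (0.49 ± 0.17, adjusted p = 0.0604). It was called without conventional replicate 1, elemental replicate 4 or elemental replicate 6 (adjusted p = 0.0442, 0.035 and 0.0487). The Il1rl1 call (1.28 ± 0.40, adjusted p = 0.0384) was lost without any 1 library other than conventional replicates 1 and 6 and elemental replicate 6, with adjusted p from 0.0542 to 0.0854. Ebi3, a subunit of heterodimeric cytokines, rose from 5.32 to 12.2 CPM (1.15 ± 0.19, adjusted p = 0.00123). Of 12 Th17 genes tested, 3 rose and 1 fell (Il17a), with a median of -0.14. The number that rose was 3 in every fit that left out 1 library, and 2 fell without conventional replicate 6. Summed over the 12 genes, CPM were higher on the elemental diet without overlap. The sums ran from 188 to 237 CPM (median 216) on the conventional diet and from 266 to 420 CPM (median 324) on the elemental diet. Il17a, the cytokine that Th17 cells secrete, ran from 2.75 to 20.4 CPM (median 9.81) on the conventional diet and from 0.186 to 4.95 CPM (median 0.908) on the elemental diet (-2.70 ± 0.75, adjusted p = 0.0305). Il17a fell short of the threshold when any 1 library was left out among conventional replicates 2 and 4 and elemental replicates 1, 2, 4 and 6, with adjusted p from 0.0508 to 0.0678.

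Of 18 Th1 and cytotoxic genes, 7 fell and 1 rose, with a median of -0.46. Without conventional replicate 5 the number that fell was 4. Ifng, the cytokine of Th1 cells, ran from 4.09 to 7.91 CPM (median 5.22) on the conventional diet and from 1.39 to 2.28 CPM (median 1.83) on the elemental diet (-1.62 ± 0.25, adjusted p = 0.000691). Ccl5, a chemokine of effector T cells, fell from 118 to 52 CPM (-1.47 ± 0.26, adjusted p = 0.00338), and Gzmb, a granzyme, from 62.6 to 9.86 CPM (-2.05 ± 0.49, adjusted p = 0.0168). Tbx21, the Th1 lineage factor, had a change of -0.37 ± 0.19, adjusted p = 0.17. The one gene that rose, Hopx, lost its call without any 1 of 7 libraries, namely conventional replicates 1, 2, 4 and 5 and elemental replicates 4, 5 and 6, with adjusted p from 0.0532 to 0.0734.

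Of 9 genes of follicle positioning and lymph node entry, 3 rose, among them Ccr7 and S1pr1, and 1 fell (Itgal). Ccr7, the receptor that leads cells into lymph nodes, rose from 294 to 437 CPM (0.53 ± 0.10, adjusted p = 0.0034), and S1pr1, which leads them out, rose from 270.3 to 346 CPM (0.36 ± 0.09, adjusted p = 0.0117). Of 16 naive T cell factors and Id genes, 2 rose (Igfbp4 and Id2) and 2 fell (Tcf7 and Myb), or 1 rose without any 1 of conventional replicates 1, 2 and 4 and elemental replicates 1, 5 and 6. Id2 lost its call without any 1 of these or conventional replicate 5 or elemental replicate 4 (adjusted p = 0.05 to 0.132). Tcf7, a transcription factor of naive cells and of T cells that help B cells, fell from 619.8 to 359 CPM (-0.63 ± 0.15, adjusted p = 0.0131), while its partner Lef1 was at 68.5 and 72.1 CPM (-0.00 ± 0.13, adjusted p = 0.985). Igfbp4, a gene of naive T cells, ran from 360.2 to 463 CPM (median 397) on the conventional diet and from 509 to 881 CPM (median 604) on the elemental diet (0.70 ± 0.13, adjusted p = 0.00219), without overlap. Among 14 genes tied to anergy, 2 rose (Rnf128 and Ndrg1) and 4 fell (Egr2, Dgkz, Nfatc1 and Nfatc2), or 2 fell without conventional replicate 4 or elemental replicate 6 and 7 without conventional replicate 6. The call of Nfatc2 was also lost without conventional replicate 1 or elemental replicate 4 (adjusted p = 0.0745 and 0.064). Rnf128, the ubiquitin ligase GRAIL, rose from 11.3 to 38.5 CPM (1.64 ± 0.19, adjusted p = 0.000124), and Egr2, a zinc finger factor induced by the T cell receptor, fell from 17.1 to 8.83 CPM (-0.91 ± 0.13, adjusted p = 0.000411). Ikzf3, the Ikaros family factor Aiolos, fell from 68.3 to 24.3 CPM (-1.36 ± 0.20, adjusted p = 0.000626). Rnf128 is also expressed in gut epithelium, and with the epithelial level as a term its change was 1.11 (adjusted p = 0.00459).

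Of 22 early genes induced through the T cell receptor, 5 fell (Egr1, Egr2, Irf4, Cd5 and Rel) and 0 rose by edgeR, although the list's median was positive, 0.10. At an unadjusted p under 0.05 there were 6 lower and 5 higher, and DESeq2 called 2 and limma-voom 1 higher. With edgeR 1 rose without conventional replicate 2, elemental replicate 2 or elemental replicate 4. The Cd5 call was lost without any 1 of 7 libraries (conventional 1, 2 and 5 and elemental 1, 4, 5 and 6, adjusted p = 0.0541 to 0.0769). Irf4, a factor of activated lymphocytes, ran from 28.6 to 38.6 CPM (median 34.2) on the conventional diet and from 16.5 to 26.7 CPM (median 20.4) on the elemental diet (-0.69 ± 0.12, adjusted p = 0.00222), without overlap, and Rel, an NF-kappaB subunit, fell from 18.4 to 10.8 CPM (-0.69 ± 0.18, adjusted p = 0.0171). Nr4a1, the receptor Nur77, was at 66.2 and 104 CPM (0.39 ± 0.33, adjusted p = 0.418).

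Antibody transcripts, which B lineage cells make, were fewer and of another make-up on the elemental diet. Immunoglobulin reads took 0.574% ± 0.161 of gene reads on the conventional and 0.203% ± 0.040 on the elemental diet (exact permutation p = 0.00216, the smallest that 6 against 6 can give, adjusted 0.00487). Of 7 heavy chain constant genes tested, 6 fell and 0 rose, with a median log2 fold change of -2.92. Their reads were counted over whole genes, since the deposited tables give them no exon length.

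The fall was uneven over the isotypes, which lie in a row on chromosome 12. Ighm, the first constant gene that a B cell uses, ran from 448 to 576 CPM (median 518) on the conventional diet and from 344 to 493 CPM (median 415) on the elemental diet (-0.30 ± 0.10, adjusted p = 0.0496). The Ighm call was lost without any 1 library other than conventional replicates 3 and 6 and elemental replicate 3, with adjusted p from 0.0619 to 0.107. Ighd, spliced from the same transcript in naive B cells, was not called (-0.22 ± 0.23, adjusted p = 0.528). Igha (chr12:113254830-113260236, minus strand), the mucosal isotype, ran from 296 to 634 CPM (median 499.8) on the conventional diet and from 45.3 to 159 CPM (median 132) on the elemental diet (-2.02 ± 0.31, adjusted p = 0.00159). Ighg2b (chr12:113302965-113307933, minus strand) ran from 28.5 to 112 CPM (median 72.5) on the conventional diet and from 2.28 to 8.42 CPM (median 3.94) on the elemental diet (-3.92 ± 0.43, adjusted p = 0.00027). Both switched isotypes were separated between the diets. Ighg1, Ighg2c and Ighg3 changed by -2.92 ± 0.45, -3.14 ± 0.60 and -3.40 ± 0.82. The IgG genes are similar in sequence, so their reads may be shared.

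As shares of heavy chain constant reads, Igha took 40.9% ± 4.47 on the conventional and 20.8% ± 7.72 on the elemental diet, and Ighm with Ighd 48.4% ± 5.91 and 77.4% ± 7.64. Neither share overlapped between the diets (exact permutation p = 0.00216 each, adjusted 0.00487). Among light chains the lambda share went from 6.43% ± 0.811 to 10.9% ± 2.89 (exact permutation p = 0.00216, adjusted 0.00487). Heavy chain variable segments fell in 27 of 50 tested and rose in 0, or fell in 17 without conventional replicate 5 and in 16 without elemental replicate 6. Conventional libraries held 46 to 73 such segments with at least 10 reads and 1909 to 6051 reads in all. Elemental libraries held 20 to 42 segments and 681 to 1288 reads, so fewer segments were seen where fewer reads were available.

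**Figure D4:**
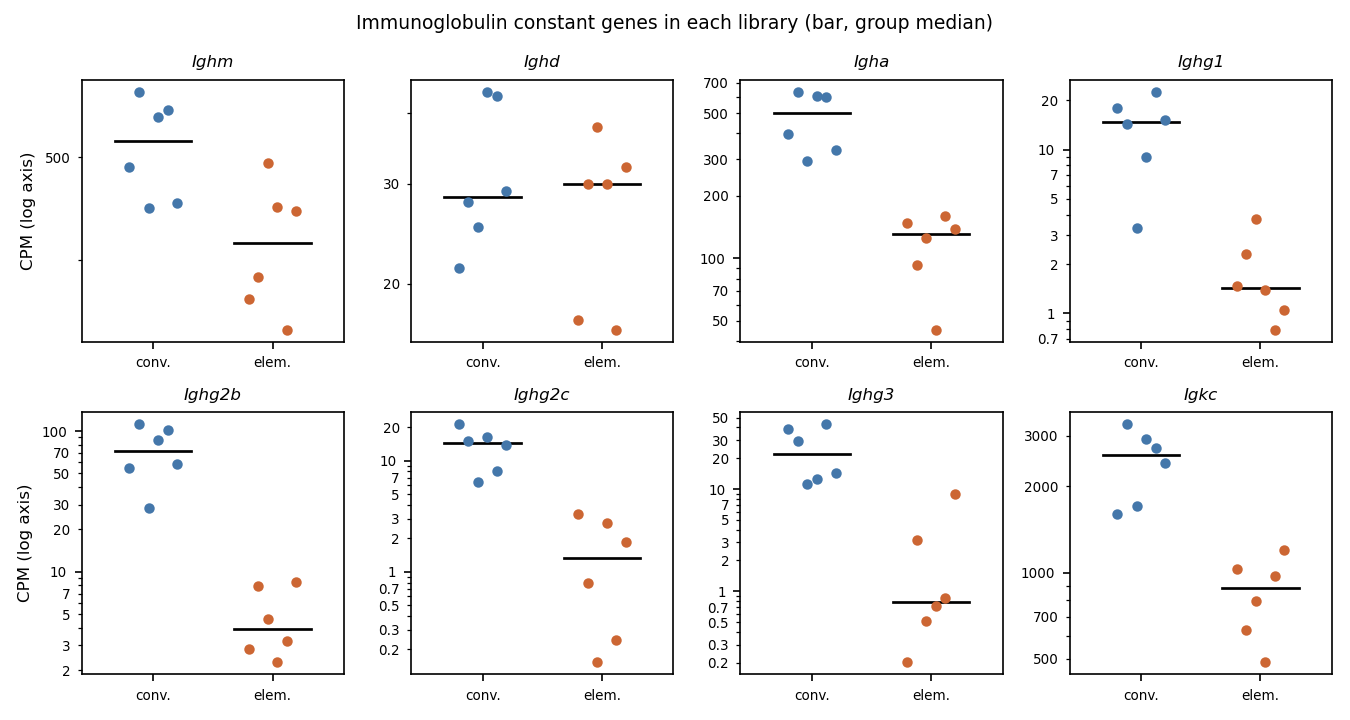
CPM (y axis, log scale) of immunoglobulin constant genes in the 6 conventional (blue) and 6 elemental (orange) libraries, with the median as a bar. Ighm and Ighd overlap between the diets, as does Ighg1, while Igha, Ighg2b, Ighg2c, Ighg3 and Igkc do not.

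Germinal centre B cell genes fell in 8 of 11 tested. Rgs13, a signalling regulator of germinal centre B cells, ran from 9.03 to 21 CPM (median 15.2) on the conventional diet and from 0.557 to 3.49 CPM (median 2.02) on the elemental diet (-2.88 ± 0.40, adjusted p = 0.00049). The groups were apart. Of 20 general B cell genes, 4 were lower (Ms4a1, Cd22, Blk and Vpreb3) and 0 higher, with a median of -0.53. Those 4 were reduced to 0 to 2 on leaving out 1 library, namely conventional 2, 4 or 5, or elemental 1, 2 and 5. Cd79a, a chain of the B cell receptor, was not called (-0.62 ± 0.25, adjusted p = 0.106).

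Of 14 plasma cell genes, 5 fell (Jchain, Mzb1, Derl3, Eaf2 and Pou2af1) and 0 rose. Jchain, which links IgA into dimers, ran from 729 to 1684 CPM (median 1293) on the conventional diet and from 203 to 670.2 CPM (median 511) on the elemental diet (-1.40 ± 0.32, adjusted p = 0.0139), and Mzb1, a chaperone of antibody secretion, fell from 89.1 to 30.7 CPM (-1.45 ± 0.25, adjusted p = 0.00228). Xbp1, the factor that builds the secretory apparatus in many cell types, was at 129.7 and 135 CPM (0.00 ± 0.09, adjusted p = 0.996). With the B cell level as a term, germinal centre genes had a median of -0.98 with 6 lower, plasma cell genes -0.15 with 2 lower, and heavy chain constant genes -2.60 with 4 lower.

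Genes of dividing cells were lower on the elemental diet. Of 27 mitosis and chromosome segregation genes tested, 21 fell and 0 rose, with a median of -1.33. The list's mean log2 CPM ran from 2.53 to 3.26 on the conventional and from 0.93 to 1.85 on the elemental diet. Of 30 DNA replication and licensing genes, 15 fell and 0 rose, with a median of -0.55. The promoters of a gene from each list are shown from 250 bases before to 50 after the start of transcription. They are RefSeq sequences of GRCm38.p6 on the gene's own strand, with capitals for short motifs searched on both strands. In Top2a (chr11:99024140-99024439, minus strand) capitals mark the CCAAT box (CCAAT) and the cell cycle homology region (TTTGAA). In Mcm6 (chr1:128359656-128359955, minus strand) they mark the CCAAT box and the E2F site (TTTGGCGC or TTTCGCGC).
Top2a: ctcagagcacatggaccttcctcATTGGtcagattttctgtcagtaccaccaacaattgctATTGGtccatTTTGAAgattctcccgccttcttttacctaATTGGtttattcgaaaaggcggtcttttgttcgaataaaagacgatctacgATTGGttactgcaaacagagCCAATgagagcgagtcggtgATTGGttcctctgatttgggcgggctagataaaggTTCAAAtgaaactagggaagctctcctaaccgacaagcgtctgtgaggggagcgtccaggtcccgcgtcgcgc
Mcm6: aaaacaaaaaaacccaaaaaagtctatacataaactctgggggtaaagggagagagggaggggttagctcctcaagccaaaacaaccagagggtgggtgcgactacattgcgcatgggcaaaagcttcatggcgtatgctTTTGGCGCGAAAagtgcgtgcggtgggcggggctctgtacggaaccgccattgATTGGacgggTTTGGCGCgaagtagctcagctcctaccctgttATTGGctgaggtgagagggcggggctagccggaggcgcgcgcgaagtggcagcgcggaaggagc

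The Top2a window held 6 CCAAT boxes and 2 cell cycle homology regions, and the Mcm6 window 2 CCAAT boxes and 3 E2F matches, of which 2 overlap. Among the 25 mitosis genes with a promoter in the table, 80.0% held a CCAAT box and 76.0% the cell cycle homology region. Among the 24 replication genes, 70.8% held a CCAAT box and 41.7% an E2F site. Over the 9346 tested genes with a promoter the shares were 43.2%, 14.6% and 1.82% for the 3 motifs in that order. A match describes the letters of the window and is not evidence of binding.

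Top2a, the topoisomerase that untangles chromosomes, ran from 3.61 to 13.1 CPM (median 10) on the conventional diet and from 0.626 to 1.8 CPM (median 0.992) on the elemental diet (-2.95 ± 0.37, adjusted p = 0.000191). Bub1b, a spindle checkpoint kinase, ran from 5.53 to 9.37 CPM (median 7.05) on the conventional diet and from 1.03 to 2.66 CPM (median 1.8) on the elemental diet (-1.98 ± 0.25, adjusted p = 0.000211). Ccna2, a cyclin of S phase and mitosis, fell from 27.9 to 10.2 CPM (-1.42 ± 0.23, adjusted p = 0.00124). The diets were separated by all 3 genes. Mcm6, a subunit of the replicative helicase, ran from 100.4 to 126 CPM (median 119) on the conventional diet and from 52 to 72.9 CPM (median 63.1) on the elemental diet (-0.89 ± 0.10, adjusted p = 0.000111), and Mcm4, another subunit, fell from 54.7 to 27.7 CPM (-0.86 ± 0.14, adjusted p = 0.00113). Pcna, the sliding clamp of DNA polymerase, was at 329 and 287 CPM without a call (-0.16 ± 0.09, adjusted p = 0.233). Mki67, a common marker of dividing cells, did not pass the filter on low counts. With the epithelial level as a term 12 mitosis genes were lower (median -1.56), and with the B cell level 10 (median -1.06). Germinal centre B cells also divide, and their markers fell in the same libraries. Neither of those fits used the level of germinal centre markers, and the part of germinal centre B cells in these values was not tested.

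Enzymes that supply deoxynucleotides fell with them in 7 of 20 cases and rose in 0, or fell in 4 without conventional replicate 5. Rrm2, the regulated subunit of ribonucleotide reductase, ran from 26.1 to 41.1 CPM (median 34.9) on the conventional diet and from 8.72 to 17.6 CPM (median 12.8) on the elemental diet (-1.43 ± 0.18, adjusted p = 0.000191). Rrm1, the large subunit, fell from 54.8 to 29 CPM (-0.90 ± 0.12, adjusted p = 0.000345). Dck (chr5:88764996-88783281, plus strand), the kinase that salvages deoxycytidine, ran from 122 to 145 CPM (median 139) on the conventional diet and from 68.5 to 83.8 CPM (median 78.4) on the elemental diet, a change of -0.82 ± 0.08, adjusted p = 2.83e-05. Its lowest conventional library lay well above its highest elemental one. Dck kept a change of -0.84 with the epithelial level as a term (adjusted p = 0.000913).

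Cholesterol and fatty acid synthesis genes fell in 13 of 26 cases and rose in 0, with a median of -0.38. Scd2 (chr19:44293676-44306864, plus strand), a desaturase of lymphoid cells, ran from 71.9 to 97.3 CPM (median 87.8) on the conventional diet and from 31 to 47.4 CPM (median 38.5) on the elemental diet (-1.16 ± 0.11, adjusted p = 4.02e-05). Fasn, the fatty acid synthase, ran from 27.1 to 60.6 CPM (median 44.9) on the conventional diet and from 15.3 to 30.4 CPM (median 24.8) on the elemental diet (-0.80 ± 0.20, adjusted p = 0.0136), with overlap.

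Ribosomal protein genes and nuclear genes of the respiratory chain had small, mostly positive log2 fold changes. Of 54 cytosolic ribosomal protein genes, 53 had a positive log2 fold change and the median was 0.25, yet 0 were called by edgeR. At an unadjusted p under 0.05 there were 16, DESeq2 called 0, limma-voom with quality weights 33, and edgeR 40 without conventional replicate 6. The nuclear genes of the respiratory chain had a median of 0.26. Beside 9.59% of all genes tested, 6 of 54 were called higher. That number was 41 without conventional replicate 6 and 10 without elemental replicate 3, and 0 to 3 without any 1 of conventional replicates 1, 2, 4 and 5 and elemental replicates 1, 4, 5 and 6. Fitted beside the epithelial level, the medians of those lists were -0.07 and -0.10. Translation factors had a positive fold change in 17 of 33 cases, with a median of 0.03, and 2 were called higher (Eif4a2 and Eef1d) and 1 lower (Eif3a). Without conventional replicate 6 these counts were 4 and 6, the lower count was 3 without elemental replicate 2 and 2 without elemental replicate 3, and the higher count was 0 or 1 without any 1 library other than conventional replicate 6 and elemental replicates 2 and 3. Genes encoded in the mitochondrial genome had a positive fold change in 4 of 13 cases, with a median of -0.11, and edgeR called 0. At an unadjusted p under 0.05 there were 3 lower and 0 higher, DESeq2 called 1 lower and limma-voom 1 higher. In conventional replicate 6 mitochondrial transcripts took 8.18% of gene reads against 6.33% to 6.78% in the other conventional libraries.

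Selenoprotein genes rose in 4 of 16 cases (Selenop, Gpx3, Gpx4 and Dio1) and fell in 0, or rose in 7 without conventional replicate 6. The Gpx4 call was lost without any 1 library other than conventional replicate 6 and elemental replicates 2 and 3 (adjusted p = 0.0664 to 0.111). Selenop (chr15:3268547-3280508, plus strand) encodes selenoprotein P, the plasma carrier of selenium. It ran from 358 to 416 CPM (median 380.1) on the conventional diet and from 753 to 967 CPM (median 819) on the elemental diet, a change of 1.13 ± 0.08, adjusted p = 2.67e-06. All 6 elemental libraries were above all 6 conventional ones by a wide gap. Beside the epithelial level the change was 1.01 (adjusted p = 0.000217). Gpx1, the main cellular glutathione peroxidase and also a selenoprotein, was not called (0.33 ± 0.13, adjusted p = 0.0934), except without conventional replicate 6 (adjusted p = 0.0149). Among other metabolic genes Cyp26b1, which degrades retinoic acid, rose from 2.11 to 9.9 CPM (2.10 ± 0.26, adjusted p = 0.000165). Atf4, the factor of the amino acid response, rose from 49.9 to 73.3 CPM (0.51 ± 0.09, adjusted p = 0.00208), while its target Asns, asparagine synthetase, did not pass the test (0.00 ± 0.23, adjusted p = 0.996).

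Part of the type I interferon response was higher on the elemental diet. Of 27 members tested, 10 rose and 0 fell, with a median of 0.42. With the epithelial level as a term 1 rose and 0 fell, with a median of 0.418, and with the B cell level 9 rose. Against a minimum fold of 1.5, 1 rose. The promoters of Ifit3 (chr19:34583279-34583578, plus strand), which rose, and of Isg15 (chr4:156200769-156201068, minus strand), which did not pass the test, are shown with the interferon response element (GAAA, any 2 bases, then GAAA again, on either strand) in capitals.
Ifit3: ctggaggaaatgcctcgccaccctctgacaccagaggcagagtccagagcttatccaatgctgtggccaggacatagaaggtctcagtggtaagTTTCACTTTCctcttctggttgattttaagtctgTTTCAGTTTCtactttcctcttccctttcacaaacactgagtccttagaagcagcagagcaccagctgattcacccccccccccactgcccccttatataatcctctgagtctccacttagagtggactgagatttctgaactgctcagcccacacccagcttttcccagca
Isg15: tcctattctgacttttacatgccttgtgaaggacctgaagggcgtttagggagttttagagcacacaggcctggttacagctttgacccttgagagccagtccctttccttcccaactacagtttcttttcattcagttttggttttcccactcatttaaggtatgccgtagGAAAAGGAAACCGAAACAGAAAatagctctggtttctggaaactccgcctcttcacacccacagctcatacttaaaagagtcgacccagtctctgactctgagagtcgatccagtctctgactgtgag

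The Ifit3 window held 2 matches and the Isg15 window 3 that overlap one another. The element was in 10 of 20 members with a promoter in the RefSeq set, against 4.07% of the tested genes. Ifit3, an RNA-binding antiviral protein, ran from 1.83 to 4.04 CPM (median 3.28) on the conventional diet and from 3.12 to 14.4 CPM (median 8.69) on the elemental diet (1.503 ± 0.32, adjusted p = 0.00655). Isg15, a ubiquitin-like modifier, ran from 21.3 to 47.9 CPM (median 29.7) on the conventional diet and from 32.4 to 57.7 CPM (median 39.2) on the elemental diet (0.41 ± 0.18, adjusted p = 0.136), and it was called without conventional replicate 6 (adjusted p = 0.0156). Irf7, the factor that amplifies the response, ran from 21.2 to 29 CPM (median 25.1) on the conventional diet and from 37.2 to 45.8 CPM (median 42.2) on the elemental diet (0.72 ± 0.10, adjusted p = 0.000398), without overlap. Bst2, the virus tether, rose from 64.7 to 124 CPM (0.85 ± 0.14, adjusted p = 0.00105), and Usp18, which dampens receptor signalling, from 9 to 20.9 CPM (1.07 ± 0.22, adjusted p = 0.00515).

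Bst2 and Irf7 are high in plasmacytoid dendritic cells. Both are counted among the 7 of 13 markers of those cells that rose in the same libraries. Siglech, their surface lectin, ran from 4.07 to 10.1 CPM (median 6.67) on the conventional diet and from 12.9 to 38.4 CPM (median 18.1) on the elemental diet (1.602 ± 0.29, adjusted p = 0.00225). The part of those cells in the interferon values was not tested. The interferon-gamma inducible GTPases had a median of 0.02, with 1 of 15 called higher and 0 lower by edgeR, and 1 lower at an unadjusted p under 0.05, by DESeq2 and by limma-voom. The higher gene, Tgtp1 (0.60 ± 0.19, adjusted p = 0.0455), lost its call without any 1 of 9 libraries, all but conventional replicates 1 and 5 and elemental replicate 3, with adjusted p from 0.0526 to 0.1.

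The level of tissue macrophage markers was higher in every elemental library than in any conventional one. Of 21 markers tested, 18 rose and 0 fell, with a median of 1.76. Summed over the list they ran from 222 to 391 CPM on the conventional and from 583 to 1848 CPM on the elemental diet. The list holds Lyz1, given below as Paneth cell lysozyme, so its reads are in the sum and its call is among the 18. C1qa (chr4:136895917-136898803, minus strand), a chain of complement C1q, ran from 28.7 to 61.4 CPM (median 50.3) on the conventional diet and from 119.6 to 375 CPM (median 187) on the elemental diet (2.18 ± 0.31, adjusted p = 0.00114). C1qb and C1qc, the partner chains, rose by 1.98 ± 0.32 and 2.06 ± 0.30. Ccl24 (chr5:135569937-135573049, minus strand), an eosinophil-attracting chemokine of gut macrophages, ran from 0.251 to 1.74 CPM (median 0.918) on the conventional diet and from 5.76 to 19.6 CPM (median 12.2) on the elemental diet (3.67 ± 0.42, adjusted p = 0.000124). Elemental replicate 1 had the highest macrophage level, 4.98 in mean log2 CPM, and replicate 3 the lowest of its group, 3.40.

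Receptors and enzymes tied to these cells moved with them. Csf1r, the growth factor receptor of macrophages, rose from 17 to 52.7 CPM (1.68 ± 0.29, adjusted p = 0.00231). Fcgr1, the high-affinity receptor for IgG, rose from 1.24 to 9.13 CPM (3.07 ± 0.37, adjusted p = 0.00016), and Tyrobp, the adaptor DAP12 of myeloid receptors, from 32.2 to 88.2 CPM (1.505 ± 0.23, adjusted p = 0.00103). Of 17 cathepsins and inhibitors 9 rose and 1 fell. Ctss, which trims the invariant chain in antigen-presenting cells, ran from 305 to 412 CPM (median 342) on the conventional diet and from 492 to 648 CPM (median 525) on the elemental diet (0.65 ± 0.10, adjusted p = 0.000585), while Ctsb was at 559.5 and 559.7 CPM in the medians (-0.07 ± 0.09, adjusted p = 0.616). MHC class II genes changed little as a group, with 2 of 11 higher (H2-DMb1 and Ctss) beside 9.59% of all genes tested. Cd74, the invariant chain, which B cells express strongly, had a change of -0.01 ± 0.15, adjusted p = 0.978. Conventional dendritic cell markers rose in 7 of 13 cases, among them Clec9a, the dead-cell receptor of the cross-presenting subset (1.86 ± 0.36, adjusted p = 0.00319). The 1 that fell, Fscn1, lost its call without any 1 library other than conventional replicates 2 and 6 and elemental replicates 1 and 2 (adjusted p = 0.0597 to 0.112). The 7 include Ccr7, given above among genes of lymph node entry. With the epithelial level as a term 0 of the dendritic cell markers rose and 0 fell, with a median of 0.95.

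Genes of small-intestinal absorption were higher on the elemental diet. Of 14 fructose uptake and gluconeogenesis genes, 12 rose and 0 fell, with a median of 2.49. Fbp1 (chr13:62864753-62888282, minus strand), a gluconeogenic phosphatase, ran from 0 to 3.61 CPM (median 1.23) on the conventional diet and from 30.9 to 48.6 CPM (median 38.5) on the elemental diet (4.86 ± 0.72, adjusted p = 0.00168). The lowest conventional library had 0 reads of it. Slc2a5, the fructose transporter GLUT5, ran from 0.251 to 4.28 CPM (median 1.65) on the conventional diet and from 21.3 to 52.1 CPM (median 27.4) on the elemental diet (3.94 ± 0.64, adjusted p = 0.00245). Khk (chr5:30921431-30931248, plus strand), the kinase that traps fructose, ran from 16.6 to 47.2 CPM (median 26) on the conventional diet and from 92.4 to 181 CPM (median 139.5) on the elemental diet (2.25 ± 0.27, adjusted p = 0.000309). All 3 genes were higher in each elemental library than in any conventional one.

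General markers of epithelium had smaller log2 fold changes, a difference between lists that was not tested. Epcam, a pan-epithelial adhesion protein, ran from 3.64 to 24.4 CPM (median 13.4) on the conventional diet and from 28.2 to 67.9 CPM (median 48.5) on the elemental diet (1.80 ± 0.42, adjusted p = 0.0146), and Vil1, which bundles actin in microvilli, changed by 1.52 ± 0.36, adjusted p = 0.012. The epithelial adhesion, keratin and mucin list had 10 of 21 higher, 0 lower and a median of 1.52. That count was 6 without conventional replicate 2 or 4 or elemental replicate 4, and 17 without conventional replicate 6. With the epithelial level as a term Fbp1, Slc2a5 and Khk changed by 2.98, 2.23 and 1.45 (adjusted p = 0.0194, 0.0323 and 0.00207), and the list had a median of 1.37 with 6 higher. The epithelial list's own median was -0.04 in that fit, which follows from using that list's mean as the term.

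Other absorptive genes followed. Sis, which cuts sucrose at the brush border, ran from 1.59 to 18.3 CPM (median 5.85) on the conventional diet and from 54.5 to 93.5 CPM (median 74.8) on the elemental diet (3.18 ± 0.53, adjusted p = 0.00308), and brush border enzymes rose in 10 of 15 cases. Anpep, an aminopeptidase that ends peptide digestion, was not called (0.79 ± 0.43, adjusted p = 0.217). Of 18 apolipoprotein and fat absorption genes, 15 rose and 0 fell. Apoc3, an apolipoprotein of chylomicrons, went from 5.78 to 53.7 CPM (3.33 ± 0.63, adjusted p = 0.00609), and Npc1l1, the cholesterol importer, from 2.7 to 19.6 CPM (2.76 ± 0.55, adjusted p = 0.00627). Of 18 amino acid and peptide transporters 7 rose and 1 fell, or 11 rose without conventional replicate 6. Slc6a20a, an imino acid carrier, rose from 4.13 to 31 CPM (2.68 ± 0.49, adjusted p = 0.00455). Slc38a1, a glutamine carrier of lymphocytes, was the one that fell (-0.48 ± 0.11, adjusted p = 0.00747). Slc6a19, the main neutral amino acid carrier of the gut, did not pass the test (1.68 ± 0.57, adjusted p = 0.0659), but did without conventional replicates 1 or 6 (adjusted p = 0.0446 and 0.0254). With the epithelial level as a term, each of these 3 lists had 1 gene higher and 0 lower. The median went from 1.59 to 0.32 for brush border enzymes and from 1.78 to 0.57 for apolipoprotein and fat absorption genes. For amino acid and peptide transporters it went from 1.13 to 0.09.

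**Figure D5:**
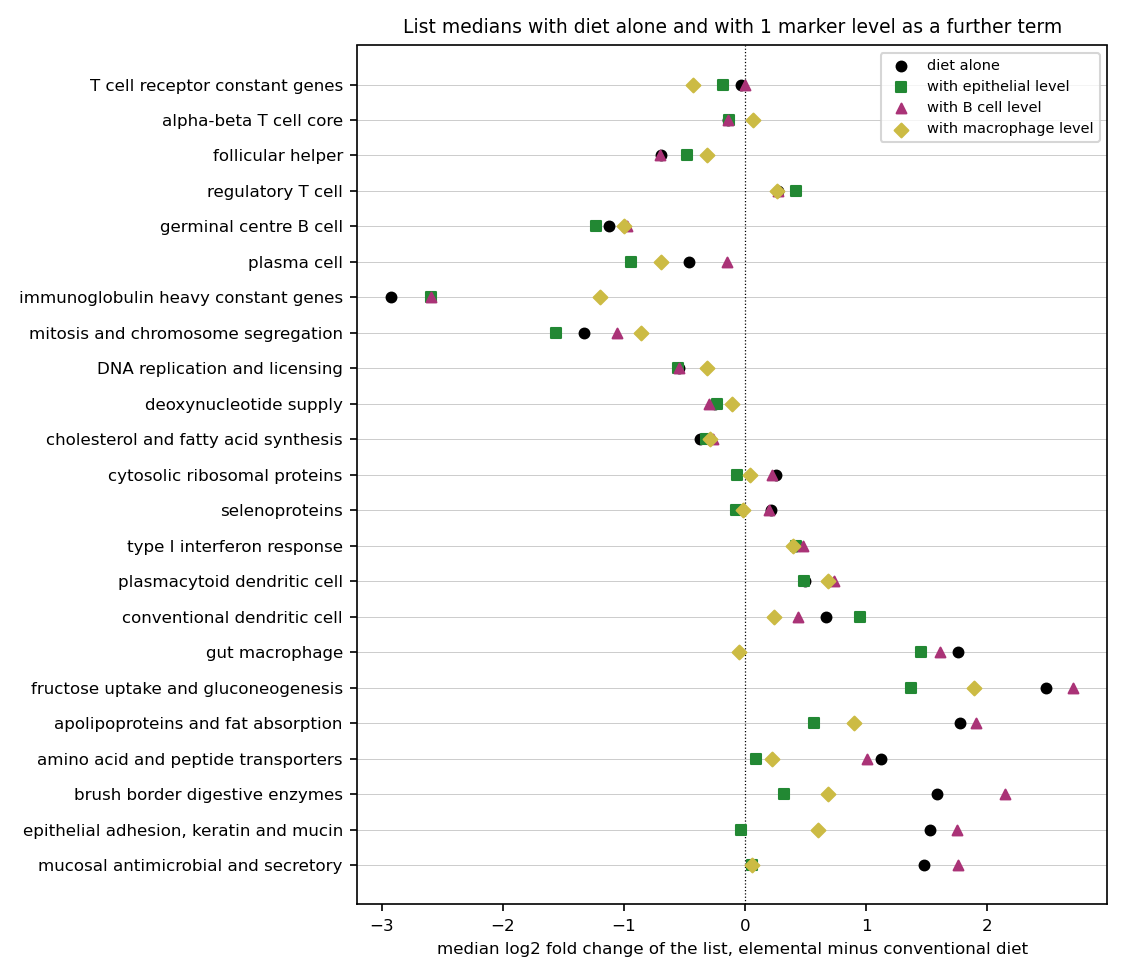
Median log2 fold change (x axis, elemental minus conventional diet) of each list with diet alone (black circles) and with the level of epithelial (green squares), B cell (purple triangles) or macrophage (yellow diamonds) markers as a further term. The epithelial term brings the epithelial list to -0.04 and leaves the fructose list at 1.37. The macrophage term brings the macrophage list to -0.05. Each term is the mean level of that same list, so these own medians follow from how the fit is built.

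Antimicrobial and secretory genes divided the elemental group. Of 17 tested, 8 rose and 0 fell, or 5 without conventional replicate 5 or elemental replicate 4. The list's mean log2 CPM was 5.53, 4.94, 4.73 and 5.38 in elemental replicates 1, 4, 5 and 6, but 2.83 and 2.54 in replicates 2 and 3, inside the conventional range of -0.34 to 3.58. Defa24 (chr8:21734494-21735471, plus strand), a Paneth cell defensin with near-identical relatives, ran from 2.8 to 9.62 CPM (median 6.54) on the conventional diet and from 4.48 to 289 CPM (median 131) on the elemental diet (4.38 ± 0.91, adjusted p = 0.00946). Itln1, an intestinal lectin, ran from 0.961 to 5.09 CPM (median 3.53) on the conventional diet and from 4.37 to 158 CPM (median 61.8) on the elemental diet (4.48 ± 0.96, adjusted p = 0.0109), and Lyz1, Paneth cell lysozyme, ran from 4.51 to 15.8 CPM (median 10) on the conventional diet and from 10.8 to 299 CPM (median 91.8) on the elemental diet (3.41 ± 0.77, adjusted p = 0.0142). In each of the 3 only elemental replicate 2 lay within the conventional range. Reg3g, a bactericidal lectin of enterocytes, was at 12.2 and 23.6 CPM (0.32 ± 0.76, adjusted p = 0.791). The 4 erythroid genes tested, which mark red cells, had a mean log2 CPM of -1.66 in elemental replicate 2, 2.85 to 5.42 in the other 5 and -1.45 to 3.05 on the conventional diet.

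Outside all of the lists, the largest decreases with separated groups were in 8 genes. Coro2b, an actin-binding protein, went from 16.1 to 4.19 CPM (-1.88 ± 0.24, adjusted p = 0.000191). Ntrk3, a neurotrophin receptor, ran from 28.5 to 36.7 CPM (median 30.8) on the conventional diet and from 8.41 to 14.3 CPM (median 11.9) on the elemental diet (-1.48 ± 0.15, adjusted p = 5.17e-05), without overlap. Padi4, an enzyme that converts arginine to citrulline, fell from 17.8 to 6.51 CPM (-1.48 ± 0.22, adjusted p = 0.000622), and Rnf157, a ubiquitin ligase, from 12 to 4.3 CPM (-1.63 ± 0.21, adjusted p = 0.000204). Pclaf and Ncapd2, a replication factor and a condensin subunit, changed by -1.40 ± 0.25 and -1.34 ± 0.19. Galnt9 and Klhl4 changed by -1.31 ± 0.17 and -1.68 ± 0.26.

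The 8 largest increases outside the lists with separated groups are given next. Abcg5, a sterol exporter, went from 1.67 to 20.4 CPM (3.14 ± 0.64, adjusted p = 0.00794), and Slc5a4a, a relative of the intestinal glucose carrier, from 2.1 to 18.2 CPM (3.08 ± 0.44, adjusted p = 0.000626). Agmo, which cleaves ether lipids, rose by 3.07 ± 0.52, adjusted p = 0.00214, and Tmem37 by 2.67 ± 0.27, adjusted p = 5.85e-05. Reg1, Guca2b, Ces2e and Prap1 rose by 2.62 ± 0.59, 2.60 ± 0.54, 2.59 ± 0.55 and 2.54 ± 0.61. With the epithelial level as a term Agmo, Tmem37 and Slc5a4a changed by 1.34, 1.94 and 1.51 (adjusted p = 0.0357, 0.00298 and 0.018). The others of these 8 are not given in that fit. Over all named genes, 153 lost their call with that term, and 141 kept theirs or stayed without one. Among abundant genes Fth1, the heavy chain of ferritin, ran from 884 to 1347 CPM (median 1085) on the conventional diet and from 1515 to 2567 CPM (median 2076) on the elemental diet (0.91 ± 0.13, adjusted p = 0.000411), and Psap, the precursor of lysosomal saposins, rose from 614 to 874 CPM (0.50 ± 0.09, adjusted p = 0.00318). Fth1 kept its groups apart and had a change of 0.61 with the epithelial level as a term (adjusted p = 0.0333).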

How the data were processed

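The authors deposited, for each library, a table of 25814 genes with whole read counts (exon, intron and total gene reads), and per the file headers also TPM and RPKM, which were not used. The submitters' processing notes name GRCm38, the build of the coordinates in the tables. Which aligner and counting program were run, and whether strand was used, is not given in the sources used here. Overlapping genes may therefore share reads. Per the labels' protocols, sorted cells went straight into lysis buffer, and poly(A) RNA libraries were made from 22 ng of total RNA.

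Total exon reads were tested, and total gene reads for the 3759 genes whose deposited exon length is 0, among them 12 immunoglobulin and 7 T cell receptor constant genes. Only the 12 CD4+ libraries entered the fit. Genes passing edgeR's filterByExpr (minimum count 10) were scaled by TMM and tested two-sided with edgeR's robust quasi-likelihood test. A Benjamini-Hochberg adjusted p under 0.05 over all genes was a call. Log2 fold changes are elemental minus conventional, with their SE. CPM are scaled by the TMM library size, and mean log2 CPM used a prior count of 2. Shares of reads were compared by two-sided exact permutation tests over 6 and 6 libraries, adjusted over 9 shares. The pipeline was checked on simulated counts. Versions were matplotlib 3.10.9, scipy 1.17.1, pandas 2.3.3 and numpy 2.4.6 under Python 3.11.15, and DESeq2 1.42.0, limma 3.58.1 and edgeR 4.0.16 under R 4.3.3.

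Alternatives were DESeq2, limma-voom, other scalings, filters, read columns, a minimum fold of 1.5, a replicate block, all 4 groups in the fit, a marker level as a term, and leaving out libraries. The members and gene lists were chosen with earlier results of these data known, so lists are described by counts and medians with no test of their own. Named genes were the defining genes of each list, called or not, the 2 called members of each list with the largest change in each direction (mean log2 CPM at least 1), outside the lists the 8 largest increases and decreases with separated groups (mean log2 CPM at least 3), and the 6 most abundant called genes in each direction. Some genes that this rule names are not reported here. Chosen after their values were seen were Blk, Bst2, Btla, Bub1b, C1qb, C1qc, Ccl5, Ccna2, Cd5, Csf1r, Dck, Dgkz, Ebi3, Egr1, Fyn, Gpx4, Icos, Ighg2c, Irf4, Khk, Mcm4, Nfatc2, Pdcd1, Pou2af1, Rrm1, Tnfsf14, Tox2, Usp18, Vpreb3 and the variable segments of receptors.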

Additional observations from a re-analysis of the deposited data

Results flagged for a closer look

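In 352 groups of 6 libraries, 18 libraries stood apart from the other 5 by Dixon's criterion, close to the 1 in 20 that chance gives. Of shares of reads, mitochondrial transcripts took 8.18% of gene reads in conventional replicate 6 (others 6.33% to 6.78%), and lambda 16.7% of light chain constant reads in elemental replicate 4 (others 9.07% to 10.6%).

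Conventional replicate 6 also stood apart in Gpx4, at 335 CPM (others 195 to 246), Pcna, at 414 CPM (299.5 to 342), and Reg3g, at 61.8 CPM (0.711 to 17.5). Conventional replicate 5 stood apart in Ccl5, at 250.4 CPM (94.0 to 141), Cd8a, at 55.9 CPM (23.5 to 29.8), and Dio1, at 1.61 CPM (0 to 0.301). Gpx3 was high in conventional replicate 4, at 4.61 CPM (0.593 to 1.96), and in elemental replicate 1, at 22.5 CPM (4.99 to 10.4). Tbx21 was low in conventional replicate 3, at 5.88 CPM (8.81 to 10.3), and Mki67 in conventional replicate 1, at 0.376 CPM (0.593 to 0.693).

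In the elemental group, Ighg3 was high in replicate 6, at 8.98 CPM (others 0.203 to 3.15), and Trbc2 too, at 742 CPM (652 to 685). Il1rl1 was low in that replicate, at 0.743 CPM (3.63 to 5.20). Slc2a5 was high in replicate 4, at 52.1 CPM (21.3 to 31.3), and in replicate 2 Tnfsf14 was low, at 24.5 CPM (30.4 to 33.5), and Dgkz high, at 154.7 CPM (126 to 136). The cause of these values was not tested.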

How the results depend on the processing

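The number of genes called ran from 1329 to 3894 when 1 library was left out, with 727 to 1959 higher and 545 to 1935 lower. It was 4113 with limma-voom and quality weights (2102 higher, 2011 lower), 383 against a minimum fold of 1.5 (273 and 110), and 3 with all 4 groups in the fit (3 and 0). It was, with the epithelial level as a term, 279 (125 and 154), with the B cell level 860 (517 and 343), and with the macrophage level 0 (0 and 0), where 445 genes had an unadjusted p under 0.05. Without the library of each diet nearest to the other diet on the first principal component (conventional replicate 6 and elemental replicate 3), an alternative chosen after seeing the data, it was 3977 (2055 and 1922). It was 2690 without conventional replicates 1 and 6, chosen likewise. The cause of these differences was not tested.

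The remaining settings kept the count within 1.5 times of 2118, from 1775 with a minimum count of 50 to 2933 with DESeq2. With the replicate number as a block (replicate block) it was 1990, 1105 higher and 885 lower. The numbers do not pair the libraries by any label. Same-numbered libraries correlated in their deviations at -0.12 to 0.16, and only replicate 2 correlated best with its own number.

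Of the shares of reads, the difference in the mitochondrial percent of gene reads was -0.66 percentage points (exact permutation p = 0.0606). It was -0.70 with receptor loci out of the denominator (exact permutation p = 0.0498), and with 1 library left out it ranged from -0.782 to -0.3996. The difference in the Trdc percent of Trdc and Trac reads ranged from 0.07765 to 0.198 with 1 library left out, with an exact p of 0.0433 without elemental replicate 5.

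With the macrophage level as a term, 21 named genes that were called without it took the opposite sign, with none called there: Btla 0.21, C1qb -0.21, C1qc -0.055, Cd5 0.015, Cd6 0.069, Cst3 -0.13, Cx3cr1 -0.022, Fyn 0.12, H2-DMb1 -0.18, Hopx -0.038, Hsp90ab1 0.005, Id2 -0.28, Ier2 -0.042, Ighg3 1.10, Lgals3 -0.35, Lgmn -0.31, Lyz1 -0.05, Lyz2 -0.10, Ripk3 0.13, Sgk1 -0.024 and Tnfaip2 -0.77 (log2). Under the other alternatives no named gene that was called, with or without the alternative, took the opposite sign. Depth limits genes of few reads, such as Mki67, which did not pass the filter.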
